A study of Mus musculus with 6 samples.

Results

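Long and short activation of a dominant-negative BMP type 2 receptor (dnBMPR2) were compared in mouse whole lung. The comparison used 4 of the 6 arrays of the series: the female and the male pool whose transgene had been active for 8 weeks, and the female and the male pool in which it had been active for 1 week. They were chosen by their labels, each 8 week pool was set against the 1 week pool of the same sex, and all measured genes were described. All 4 pools carried the inducible SM22-dnBMPR2 transgene, so that only the length of activation differed by design. Each pool held 3 mice, 12 mice in all. By the series text, transgenic mice of both times had high right ventricular pressure when killed. The other 2 arrays were controls, a male pool labelled SM22-rtTA only and a female pool labelled only by sex and the FVB/N strain, which the series text gives as carrying the transactivator alone. They entered none of the main differences, and their levels are given beside some of the leading genes. The fits with 1 pool left out and the fit of all 6 arrays, run as checks, did include them. Age was not given, and age, time on the inducer and handling ran with activation time and cannot be told apart from it.

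BMPR2 is a cell-surface receptor kinase that pairs with type 1 receptors, binds bone morphogenetic proteins and signals through Smad transcription factors, which switch on targets such as the Id genes. Heterozygous loss of BMPR2 underlies most heritable pulmonary arterial hypertension, a disease in which small lung arteries thicken and narrow. SM22 is the smooth muscle protein encoded by Tagln, and its promoter directs the transgene to smooth muscle, so most cells of a whole lung sample do not carry active transgene.

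The values were array intensities for 45037 probe sets, analysed as log2 intensity after quantile normalization, with a floor at 3.95 below which no level was read. A probe set is a group of array probes for 1 transcript region, and a gene can have several. Of these, 26675 lay above a filter on dim signals and 22901 of them carried 1 gene symbol, for 13227 genes. The deposited array medians were 60.2 and 57.1 in the female and male 1 week pools and 50.5 and 52.9 in the 8 week pools. Between 11.1% and 12.5% of values on each of the 6 arrays stood at the lowest deposited intensity, 10. The sex labels held: Eif2s3y and Kdm5d, on the Y chromosome, were at the floor in the 3 female pools and between 7.40 and 9.78 in the 3 male pools. Xist, the RNA of the inactive X chromosome, stood at the floor in the male pools and at 11.22, 10.87 and 8.90 in the control, 1 week and 8 week female pools at its brightest probe set, so it matched the labels but was 1.97 lower at 8 weeks; its other 2 probe sets were 0.98 and 0.61 lower there.

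At 8 weeks the lungs held more RNA of alveolar macrophage and neutrophil genes and less RNA of cardiac muscle, ciliated cell, platelet and smooth muscle genes than at 1 week, in the female and in the male pair. The macrophage list stood 2.76-fold higher by its median and the cardiac list 3.25-fold lower. In whole lung, fewer cells of a type and less RNA per cell cannot be told apart. Counting probe sets, 220 of 26675 (0.825%) were at least 2-fold higher at 8 weeks in both sexes, 290 (1.09%) were at least 2-fold lower in both, and 8 (0.03%) were 2-fold apart in opposite directions. Of the probe sets 2-fold apart in the same direction, 43.1% were thus higher; on the values as deposited, without quantile normalization, that share was 24.5% (143 higher and 440 lower). Each gene taken once, at its brightest probe set, 142 of 13227 genes (1.07%) were 2-fold higher and 99 (0.748%) 2-fold lower in both sexes. By any amount, 41.1% of genes were higher and 28.9% lower in both, and the median gene differed by 0.04 on the log2 scale.

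No probe set passed an adjusted p of 0.05 in limma (0 of 26675, 0%), where the smallest adjusted p was 0.155. At an unadjusted p below 0.05 stood 5047 probe sets, 2567 higher and 2480 lower. With 2 pools a time and sex as a term, 1 residual degree of freedom was left, and the count differed with how limma pooled the variances: with its trend and robust settings 1565 probe sets (5.87%) passed, 653 higher and 912 lower. Taken by gene under these settings, 3.2% of genes passed as higher and 2.88% as lower. An exact two-sided permutation test of 2 pools against 2 cannot go below p = 0.3333. The differences are therefore described by their size and by whether the female and male pairs shared them. The 2 pairs were separate animals, and across the 26675 probe sets their differences correlated at Pearson's r of 0.53 and Spearman's rho of 0.485, a description across probe sets that are not independent of each other.

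**Figure D1:**
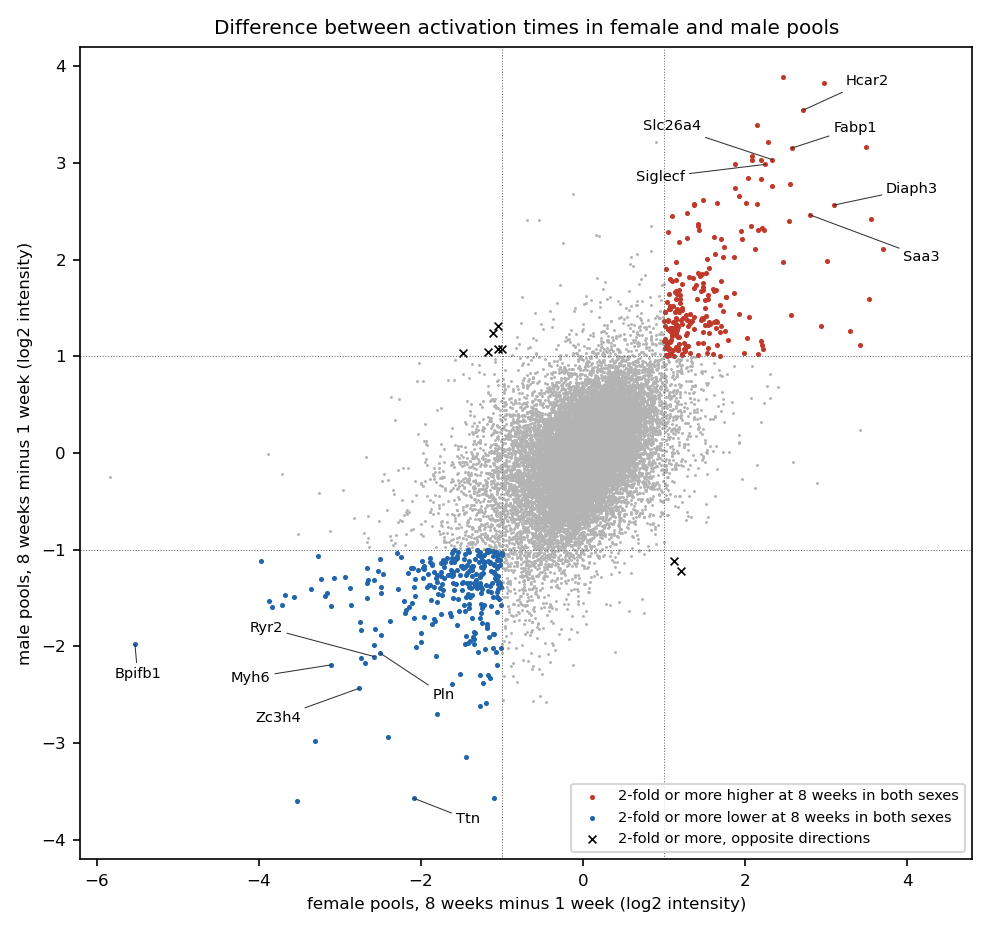
Each point is 1 of 26675 probe sets, placed by the log2 difference between 8 weeks and 1 week in the female pools (horizontal) and in the male pools (vertical); dotted lines mark 2-fold. The 220 red and 290 blue probe sets were 2-fold apart in the same direction in both sexes, and the 8 crosses in opposite directions.

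The 15 genes that stood highest at 8 weeks, ranked by the smaller of the 2 sexes' differences, were mostly genes of macrophages and other myeloid cells. Saa3, an acute-phase serum amyloid, read 7.63 and 7.89 in the female and male pools at 1 week and 10.42 and 10.36 at 8 weeks, against 6.15 and 6.45 in the controls. The 8 week pools lay within 0.07 of each other and far above all other pools, a difference of 2.63 ± 0.16 (SE, n = 2 pools a time) or 6.19-fold. Fabp1, a fatty acid-binding protein that marks mouse alveolar macrophages among lung cells, read 6.21 and 5.35 at 1 week and 8.78 and 8.50 at 8 weeks, with controls at 5.27 and 6.53. Neither sex overlapped between the times, and the difference was 2.86 ± 0.20, or 7.28-fold. A second probe set of Fabp1 gave 2.67.

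Siglecf, a sialic acid-binding receptor of alveolar macrophages and eosinophils, went from 5.97 and 5.18 at 1 week to 8.22 and 8.17 at 8 weeks, a difference of 2.62 ± 0.23. Il1rn, the secreted antagonist of the interleukin-1 receptor, was at 5.21 and 5.05 in the 1 week pools against 7.44 and 7.36 in the 8 week pools, 2.27 ± 0.13 apart. For Il1rn the pools of each time were close together, while the 1 week pools of Siglecf lay further apart. In both genes the times did not overlap. The Siglecf controls read 4.79 in the female and 6.26 in the male pool, the latter above both 1 week pools. Slc26a4, which encodes the anion exchanger pendrin of secretory epithelium, read 5.52 and 4.33 at 1 week and 7.86 and 7.36 at 8 weeks, while the controls were at 4.10 and at the floor. Its male 1 week pool was near the floor, and the difference was 2.69 ± 0.22. Diaph3, a formin that builds actin filaments, read 4.06 and 4.53 at 1 week and 7.16 and 7.09 at 8 weeks, 2.83 ± 0.19 apart.

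The remaining genes of this rank were Ms4a6d, Clec4n (the C-type lectin dectin-2), C5ar1 (the receptor of complement fragment C5a), Mcoln3 (a cation channel of endosomes and lysosomes), Olr1 (a scavenger receptor for oxidised lipoprotein), Ang4, Clec4b1, Ear3 and Csf2rb. Csf2rb is the signalling chain of the receptors for GM-CSF, interleukin 3 and interleukin 5. Their differences ran from 2.12 for Clec4b1 to 2.77 for Ang4, and their 8 week pools were above both 1 week pools in each case. For C5ar1 the other, brighter probe set gave -0.35, so its direction depended on the probe set. Ang4 and Ear3 belong to families of closely alike ribonuclease genes and were read by probe sets marked for cross-hybridisation, so that which family member was measured is uncertain. Hcar2, the receptor for niacin and hydroxybutyrate, was at the floor in both 1 week pools and at 6.67 and 7.50 at 8 weeks, at least 8.78-fold higher on average.

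Striated muscle genes, most of them of the heart, filled 7 of the 15 places among the lowest. Myh6, the alpha myosin heavy chain of heart muscle, read 10.91 and 11.36 at 1 week and 7.80 and 9.17 at 8 weeks, with controls at 11.18 and 11.06. Both 8 week pools were below the other 4, the female one by more, and the difference was -2.65 ± 0.27, a level 6.28-fold lower. Ryr2, the calcium release channel of heart muscle, had 6.72 and 7.60 in the 1 week pools but 4.15 and 5.49 in the 8 week pools, -2.34 ± 0.18 apart. Ttn, the sarcomere spring titin, went from 7.73 and 8.98 to 5.64 and 5.40, a difference of -2.83 ± 0.41. Pln, Tcap, Actn2 and Mlip, which serve calcium pumping, the Z disc and the muscle nucleus, were between -2.19 and -2.29 apart.

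The other 8 lowest genes have other roles, and for most of them the remaining probe sets did not share the difference. Zc3h4, Slc20a1, Rbm39, Itsn2 and Epb41l2 differed by -2.60, -1.98, -1.93, -2.25 and -2.28 at the probe set that ranked. Their other probe sets lay at 0.04 for Zc3h4, at -0.01 for Slc20a1, between -0.92 and 0.23 over 11 for Rbm39, between -0.52 and 0.08 over 5 for Itsn2 and between -0.96 and 0.00 over 3 for Epb41l2. Tcf21, a transcription factor of lung mesenchyme, stood at -1.81 and its other probe set at -0.38, and Slc6a2, the noradrenaline transporter, at -1.78 with others at -0.40 and 0.38. Bpifb1, a secreted protein of the airway lining, had 10.07 and 10.25 in the 1 week pools but 4.54 and 8.27 in the 8 week pools. It was lower in both sexes but by very different amounts, -5.53 in females and -1.98 in males, and its error was accordingly wide (-3.75 ± 0.94). In limma the adjusted p of these 30 genes lay between 0.155 and 0.205, and with trend and robust settings 29 of them passed, Bpifb1 being the exception at an adjusted p of 0.406.

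Agreement among probe sets of a gene was thus lower on the side of lower values. For 67 of the 2-fold higher probe sets the gene had other probe sets. The median of those others stood at 0.5 or more in the same direction for 46 of the 67 probe sets (68.7%). Among 2-fold lower probe sets this held for 57 of 138 (41.3%). Probe sets without a single gene symbol made up 14.2% of all kept, 13.2% of the 2-fold higher and 25.5% of the 2-fold lower ones.

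**Figure D2:**
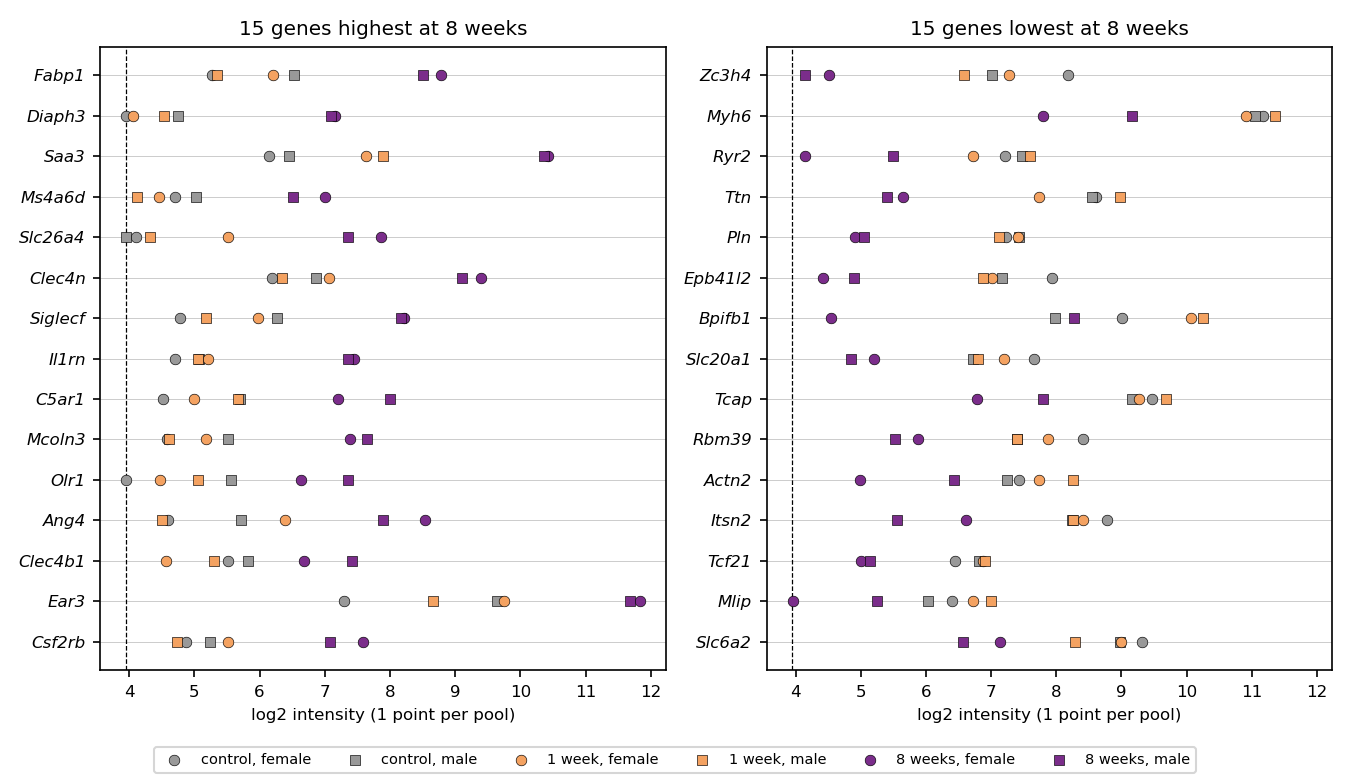
Log2 intensity of the 15 genes highest and the 15 lowest at 8 weeks, 1 point per pool of 3 mice; circles are female and squares male pools, and the dashed line is the floor. In every row the 2 purple 8 week points lie on the same side of the 2 orange 1 week points, and the grey control points lie nearer to the 1 week than to the 8 week points for most genes.

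Genes were then read in lists by cell type and pathway. The lists were written with earlier results of these data known, so shares of their members are descriptions and no test. Counts of members higher or lower in both sexes are to be read beside the 41.1% and 28.9% of all genes. Alveolar macrophages live in the air spaces, clear surfactant and particles and need GM-CSF. Of 20 listed markers 15 were measured, 13 of them higher at 8 weeks in both sexes and 10 at least 2-fold (66.7%, against 1.07% of all genes). The list median was 1.47, 1.17 in females and 1.60 in males, and 0.96 when the male 1 week pool was left out. Chil3, a chitinase-like secreted protein, read 9.96 and 8.60 at 1 week and 11.84 and 11.59 at 8 weeks. Atp6v0d2, a proton pump subunit of bone and macrophage cells, went from 7.14 and 5.82 to 9.06 and 8.47. Both were higher than the 1 week pools in each sex, by 2.44 ± 0.32 and 2.29 ± 0.23. Marco, a scavenger receptor, Itgax, the CD11c integrin, and Mrc1, the mannose receptor, were 1.97, 1.21 and 1.13 higher. Not all markers shared this: Lpl and Car4, which other lung cells also express strongly, differed by 0.04 and -0.14, and Pparg was 0.73 higher in females and 0.11 lower in males.

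Neutrophil markers were higher too, with 13 of 15 measured genes of 20 higher in both sexes, against 41.1% of all genes. At least 2-fold higher were 8 of them (53.3%, against 1.07% of all genes), and the median was 1.31. S100a9, a calcium-binding protein that fills neutrophil cytosol, read 10.04 and 10.50 at 1 week and 11.96 and 11.93 at 8 weeks, 1.68 ± 0.18 apart. Its partner S100a8 went from 10.54 and 11.10 to 12.10 and 12.43. The formyl peptide receptor Fpr2 differed by 2.12, the collagenase Mmp8 by 1.65, Mmp9 by 1.56 and the lectin Clec4d by 1.44. Besides Mmp8 and Mmp9, which were higher, genes of granule proteins had no common direction. Lcn2, a protein that binds bacterial iron carriers, also made by airway epithelium, was 1.38 higher and Ngp 0.43 higher. Ltf, also made by airway glands, was 0.48 lower, and Mpo was 1.30 lower in females and 0.28 higher in males.

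Relative to the mean of the 1 week pools, the macrophage list stood at 1.48 and 1.30 in the 8 week female and male pools and at -0.41 and 0.00 in the controls. For neutrophil markers these values were 1.13 and 1.03 at 8 weeks and -0.21 and -0.02 in controls. By these medians, the control and 1 week pools lay together in both lists and the 8 week pools apart from them. Single members could differ from this: Chil3 read 6.51 in the female control and 9.96 in the female 1 week pool.

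Other leukocyte lists differed by less. Markers of monocytes and interstitial macrophages had a median of 0.49, with 13 of 16 higher in both sexes. Ms4a7 (1.87), the lysosomal glycoprotein Cd68 (1.46) and the macrophage surface antigen Adgre1 (1.08) were 2-fold higher. Ccr2, the receptor that brings monocytes out of the marrow, and Cd163 were lower in both sexes by 0.54 and 0.40. The 3 other kept probe sets of Ccr2 lay between -0.01 and 0.83, so its direction depended on the probe set. Dendritic cell markers stood at 0.39, T cell markers at 0.33 with 11 of 15 higher in both sexes, and B cell markers at 0.27. NK cell markers stood at -0.15. Without the female 1 week pool the B cell median turned to -0.055 and the NK cell median to 0.13.

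Chemokines and their receptors had a median of 0.35, with 15 of 21 higher in both sexes and 1 lower. Ccr1, a receptor of neutrophils and monocytes, read 6.26 and 6.50 at 1 week and 8.03 and 8.12 at 8 weeks, 1.69 ± 0.14 apart and without overlap. The monocyte attractant Ccl12 was higher by 1.37. Cxcl2, a neutrophil attractant, read 4.92 and 4.11 at 1 week and 6.34 and 6.45 at 8 weeks, 1.88 apart, but the female control was higher than all of these at 10.55 and the male control stood at the floor. Without the male 8 week pool, in a fit over the other 5 arrays that takes the sex difference from the control and 1 week pools, Cxcl2 stood at -0.028. Among complement and acute-phase genes the median was only 0.16, yet Saa3, Il1rn and Itih4 were 2-fold higher in both sexes, while C2 and Hp, the haemoglobin scavenger haptoglobin, were each 0.33 lower. Lysosomal genes stood at 0.30, with 17 of 19 higher in both sexes, led by Atp6v0d2 and the macrophage protease Ctss (1.17 ± 0.14). Protease genes as a list did not stand apart (median 0.04), but within it Timp1, an inhibitor of metalloproteinases, read 9.42 and 8.90 at 8 weeks against 7.20 and 7.82 at 1 week, and Mmp3 went from 6.03 and 6.24 to 7.45 and 8.10.

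**Figure D3:**
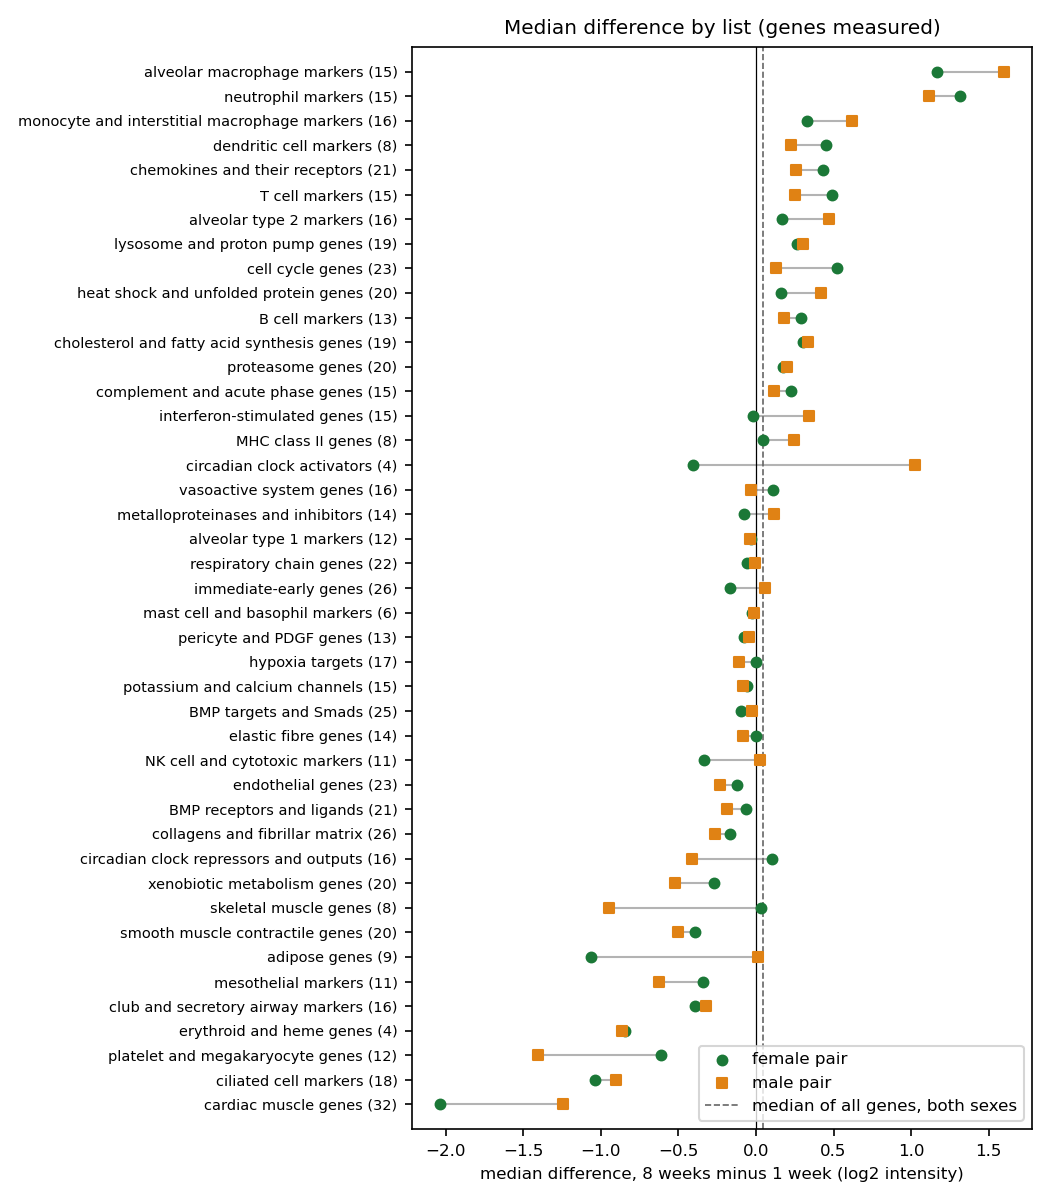
Median log2 difference of the measured genes of each list, 8 weeks minus 1 week, in the female pair (green circles) and the male pair (orange squares); the number of genes is in brackets and the dashed line is the median of all genes, 0.04. The alveolar macrophage (1.17 and 1.60) and neutrophil lists (1.32 and 1.11) lie furthest to the right the cardiac list (-2.03 and -1.24) furthest to the left in females, and the platelet list (-0.61 and -1.41) furthest to the left in males.

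Heart muscle genes gave the widest list difference. In mice, cardiac muscle reaches from the left atrium into the walls of the pulmonary veins, so lung samples hold some of it. Of 34 listed genes 32 were measured, and 28 were lower at 8 weeks in both sexes, 21 of them at least 2-fold (65.6%, against 0.748% of all genes). The median was -2.03 in females and -1.24 in males. Relative to the 1 week mean, the list stood at -2.43 and -1.09 in the 8 week female and male pools and at -0.36 and -0.32 in the controls. The control and 1 week pools thus lay close together and the 8 week pools below them.

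Genes of the atria and of heart muscle in general were among those lower. Sln, the atrial calcium pump inhibitor sarcolipin, read 9.97 and 10.01 at 1 week and 5.99 and 8.88 at 8 weeks. Myl7, the atrial regulatory myosin light chain, went from 11.02 and 11.43 to 8.08 and 10.15, and Tnni3, cardiac troponin I, from 9.91 and 10.25 to 6.35 and 8.76. In these genes the female 8 week pool was the lowest of all. Actc1, cardiac alpha actin, went from 12.02 and 12.05 to 10.30 and 10.76, a more even difference of -1.50 ± 0.17. The natriuretic peptide genes were the exception: Nppb was 0.55 higher, and Nppa was at the floor in both female pools and at 6.78 and 8.12 in the male pools of 1 and 8 weeks. The transcription factor Tbx5 differed by -0.09 at its brightest probe set and by -0.73 at its other one. Nkx2-5, another cardiac transcription factor, was dim, between 5.07 and 5.49 in the 4 pools. It was 0.41 higher in females and 0.28 lower in males, so no direction can be read for it. Of 8 skeletal muscle genes measured, Myl1, Ckm and Tnnt3 were 2-fold lower in both sexes and Mybpc2 was 0.86 higher.

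Promoters of the cardiac list are shown because its genes were lower together. They were searched on both strands for the CArG box, the site bound by serum response factor in many muscle genes, from 250 bases before to 50 after the RefSeq start (GRCm38.p6). The box was present in 4 of 25 cardiac genes with a promoter in the table (16%: Actc1, Ldb3, Myl7 and Myom1) and in 488 of 27025 genes in all (1.81%). Of 16 smooth muscle genes, 1 held it (Myl9, 6.25%). The promoters of Actc1 (chr2:114052826-114053125, minus strand, box 47 bases before the start) and Myl7 (chr11:5898733-5899032, minus strand, box 61 bases before) are printed with the box in capitals. A match describes the letters and says nothing on binding.
Actc1: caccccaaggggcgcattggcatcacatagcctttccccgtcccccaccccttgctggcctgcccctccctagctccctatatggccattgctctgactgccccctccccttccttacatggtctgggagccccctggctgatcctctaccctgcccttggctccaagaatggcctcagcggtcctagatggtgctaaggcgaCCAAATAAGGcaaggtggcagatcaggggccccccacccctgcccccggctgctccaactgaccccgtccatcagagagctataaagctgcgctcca
Myl7: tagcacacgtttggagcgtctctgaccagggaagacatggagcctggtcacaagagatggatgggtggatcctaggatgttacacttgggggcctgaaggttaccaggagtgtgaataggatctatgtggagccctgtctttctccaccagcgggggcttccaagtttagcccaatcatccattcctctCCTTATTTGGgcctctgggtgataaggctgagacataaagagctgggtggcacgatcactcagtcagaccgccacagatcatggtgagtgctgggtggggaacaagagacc

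Promoters were taken for print only from box holders at least 2-fold lower at 8 weeks in each sex. That both printed genes were lower is thus a condition of the choice and no result on the box. Of the other 2 holders, Ldb3, a Z disc protein, was 1.33 and Myom1, an M band protein, 1.00 lower.

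Ciliated cells beat mucus out of the airways. Of 20 listed markers 18 were measured, and all 18 were lower at 8 weeks in both sexes, against 28.9% of all genes. At least 2-fold lower were 3 of them (16.7%, against 0.748% of all genes). The median was -0.98 (-1.04 in females, -0.90 in males). Rsph1, a radial spoke protein of motile cilia, read 8.94 and 8.76 at 1 week and 7.70 and 7.51 at 8 weeks, -1.25 ± 0.13 apart. Foxj1, the transcription factor that sets up motile cilia, went from 8.34 and 8.33 to 7.57 and 7.66, and the tektin Tekt4 from 7.56 and 7.17 to 6.46 and 6.02. The pools of each time were close together and did not overlap with the other time. With trend and robust settings in limma, 15 of the 18 passed, all lower, against 2.88% of all genes. The control pools of this list stood at -0.13 and -0.54 relative to the 1 week mean, between the times in the male and near the 1 week level in the female.

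Of 16 club and other secretory cell markers measured, 13 were lower and 1 higher in both sexes, with a median of -0.49 (-0.39 in females, -0.32 in males). Cyp2f2, an abundant club cell oxidase, was 0.51 lower and Scgb3a2 0.24 lower, each in both sexes, and Scgb1a1 stood at the top of the array scale in all 4 pools, where no difference can be read. Bpifa1, a secreted protein of upper airways, read 9.78 and 10.92 at 1 week and 10.67 in the male 8 week pool, while the female 8 week pool was at the floor. Scgb3a1 showed the same pattern, 11.90 and 11.92 at 1 week, 8.01 in the female and 11.91 in the male pool at 8 weeks. Reg3g, an antibacterial lectin, was lower in both, from 7.79 to the floor in females and from 9.77 to 8.18 in males. For Bpifa1 and Scgb3a1 the large difference was thus that of the female 8 week pool, while Reg3g, like Bpifb1 above, was at least 2-fold lower in each sex. Whether the sexes differ could not be tested with 1 pair each.

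**Figure D4:**
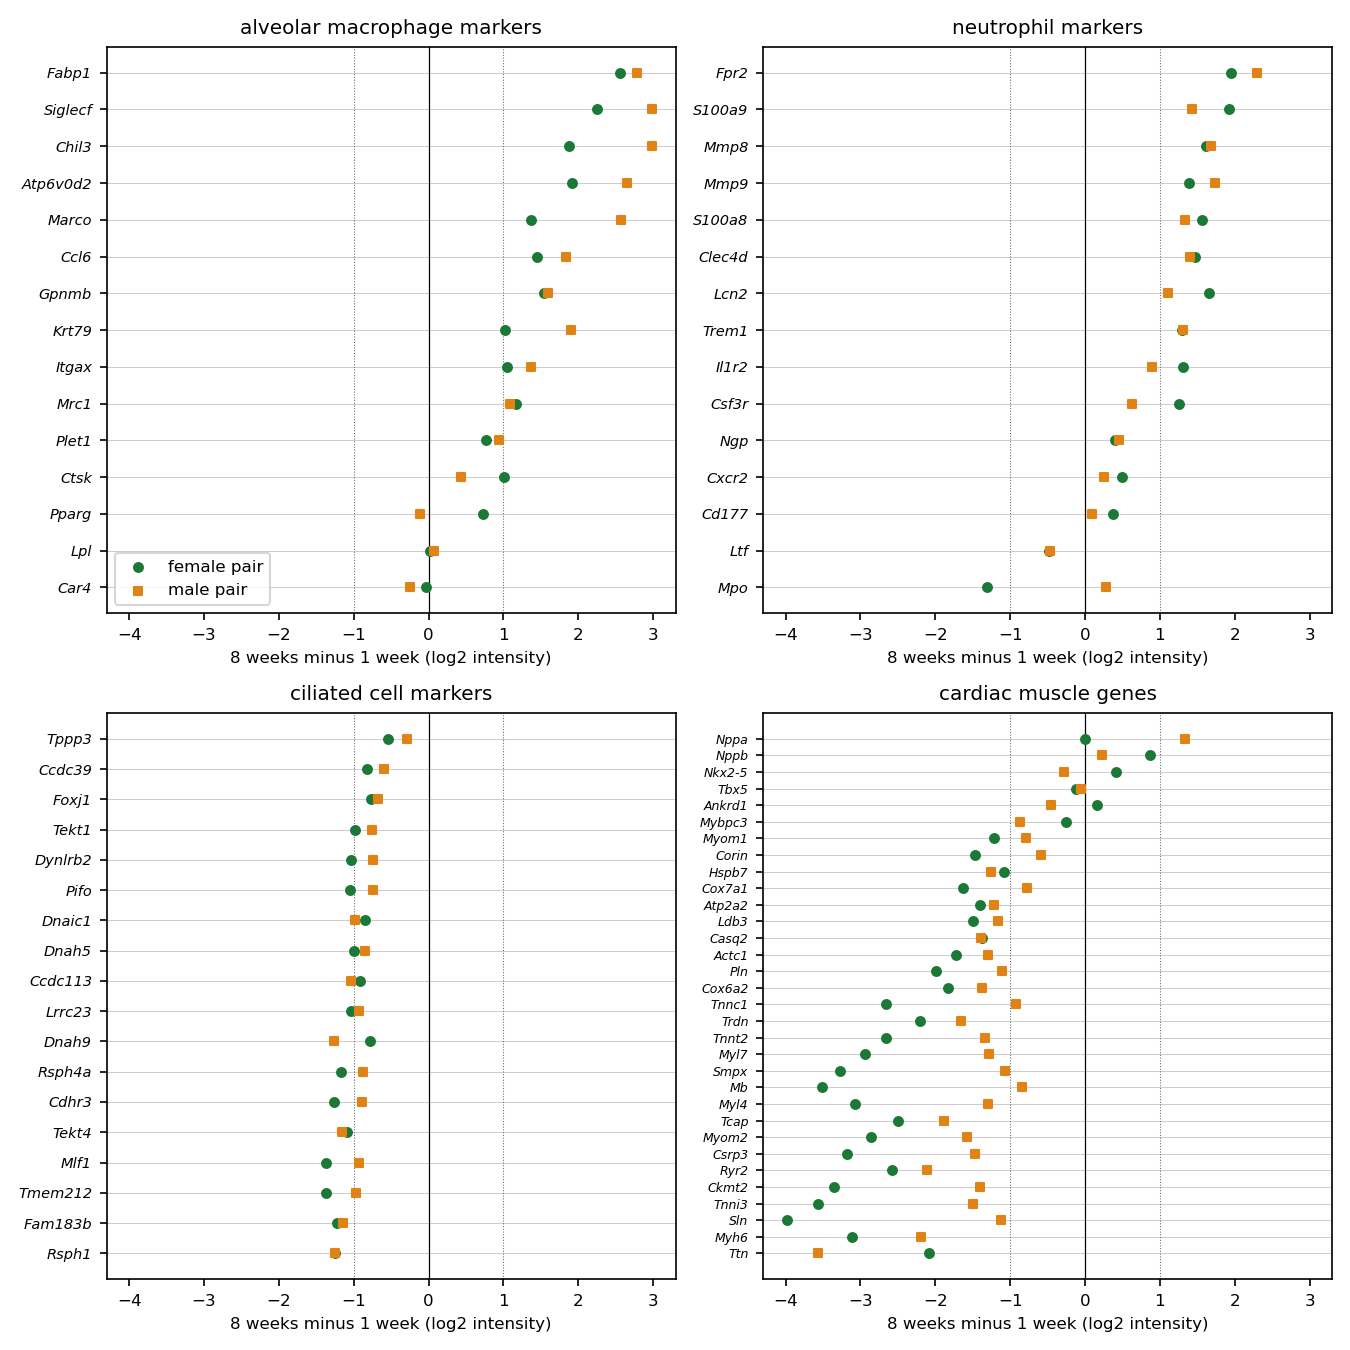
Log2 difference between 8 weeks and 1 week of each measured gene in 4 lists, in the female pair (green circles) and the male pair (orange squares); dotted lines mark 2-fold. Alveolar macrophage and neutrophil markers lie mostly to the right of 0, all 18 ciliated cell markers to the left in both sexes, and cardiac genes to the left with wider female than male differences for most.

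Smooth muscle is where the SM22 promoter is active. Of 20 contractile genes, all measured, 17 were lower at 8 weeks in both sexes and 2 higher, with a median of -0.47. Acta2, smooth muscle alpha actin, read 12.10 and 12.11 at 1 week and 11.55 and 11.63 at 8 weeks, -0.51 ± 0.13 apart. Tagln went from 11.48 and 11.31 to 11.06 and 11.02, a difference of -0.36 ± 0.13. Both were lower in each sex without overlap, by less than 2-fold. Actg2, the gamma actin of visceral muscle, differed by -1.35, calponin Cnn1 by -1.04, Tpm1 by -0.95 and the smooth muscle myosin Myh11 by -0.99 in females and -2.55 in males. Several members, Pln, Tpm1 and Des among them, are also made by heart muscle, whose genes were lower in the same pools; the share of that in this list was not tested. Relative to the 1 week mean, the list stood at -0.33 and -0.58 at 8 weeks and at -0.06 and -0.34 in the controls, so the male control overlapped with the 8 week pools.

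At its brightest probe set, no measured gene of the BMP pathway lists was 2-fold apart in both sexes. With any kept probe set counted, 1 gene among the targets and Smads was 2-fold lower in both. Bmpr2 at its brightest probe set read 11.79 and 11.84 at 8 weeks against 11.85 and 12.14 at 1 week, and 2 dimmer probe sets gave -0.49 and 0.23. The labels do not say which sequence the transgene carries, so these probe sets do not check the transgene. Of 21 measured receptors, ligands and antagonists, 12 were lower and 3 higher in both sexes (median -0.18), against 28.9% and 41.1% of all genes. Among them were the type 1 receptor Bmpr1b (-1.12), the ligands Bmp6 (-0.56) and Bmp4 (-0.46) and, on the other side, Bmp2 (0.60). Acvrl1, the type 1 receptor of endothelium, was 0.39 lower.

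Of 25 targets and Smads, 10 were lower and 8 higher in both sexes (median -0.09), against 28.9% and 41.1% of all genes. Id1, the classic target, read 11.04 and 10.69 at 1 week and 10.69 and 10.42 at 8 weeks, a difference of -0.30 ± 0.13 with the female 8 week pool at the level of the male 1 week pool. Id3 differed by 0.06 ± 0.13 and the inhibitory Smad6 by -0.50 ± 0.14. Id2 (0.50) and Id4 (-0.80) stood on opposite sides, so the Id genes had no common direction. Id1, Id3 and Smad6 did not pass in limma, with adjusted p from 0.217 for Smad6 to 0.819 for Id3. With trend and robust settings Smad6 passed at an adjusted p of 0.0291 and Id1 (0.0772) and Id3 (0.71) did not. Under these settings 6 of the 25 targets and Smads passed, 2 higher and 4 lower. Of the 21 receptors, ligands and antagonists 2 passed, both lower. Over all genes, 3.2% passed as higher and 2.88% as lower there.

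Blood and vessel genes followed. Platelet and megakaryocyte genes were lower in both sexes in 10 of 12 cases, with a median of -0.93 (-0.61 in females, -1.41 in males). Itga2b, the platelet fibrinogen receptor chain, read 8.96 and 9.46 at 1 week and 7.91 and 8.05 at 8 weeks, -1.23 ± 0.16 apart, and Tubb1, the platelet tubulin, was -1.53 ± 0.31 apart. Here the 1 week pools were the high ones: relative to their mean, the list stood at -0.80 and -1.10 at 8 weeks and at -0.69 and -0.82 in the controls. The 4 erythroid genes measured, of 16 listed, were also lower in both sexes at their brightest probe sets. Alas2, the first enzyme of heme synthesis in red cells, differed by -1.09 ± 0.14. Hbb-b2, a haemoglobin chain, differed by -0.37, but its other probe set stood at 0.98. For the erythroid list too the controls, at -1.30 and -0.46, were below the 1 week pools.

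Endothelial genes were lower in both sexes in 16 of 23 cases, but by little (median -0.17), with Sox18 (-0.46), Sox17 (-0.44) and the VEGF receptor Kdr (-0.30) as the leading ones. Collagens and fibrillar matrix genes were lower in 17 of 26 cases (median -0.20), led by Col6a2 (-0.62) and Col1a1 (-0.59). Fn1, fibronectin, was 0.26 higher at its brightest probe set, but its other probe set stood at -0.40. Vasoactive genes (0.04), potassium and calcium channels (-0.09), hypoxia targets (-0.07), pericyte genes (-0.06) and elastic fibre genes (-0.10) had medians near that of all genes. Endothelin-1, encoded by Edn1, differed by 0.17, and Ptgir, the prostacyclin receptor, by 0.74. Mesothelial genes, of the lung's outer lining, were lower in 9 of 11 cases (median -0.48), with the female control pool lower still, at -0.99 relative to the 1 week mean. The adipose list had a median of -1.06 in the female and 0.01 in the male pair; Adipoq, the fat cell hormone adiponectin, read 8.31 and 7.48 at 1 week and 4.60 and 7.26 at 8 weeks.

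**Figure D5:**
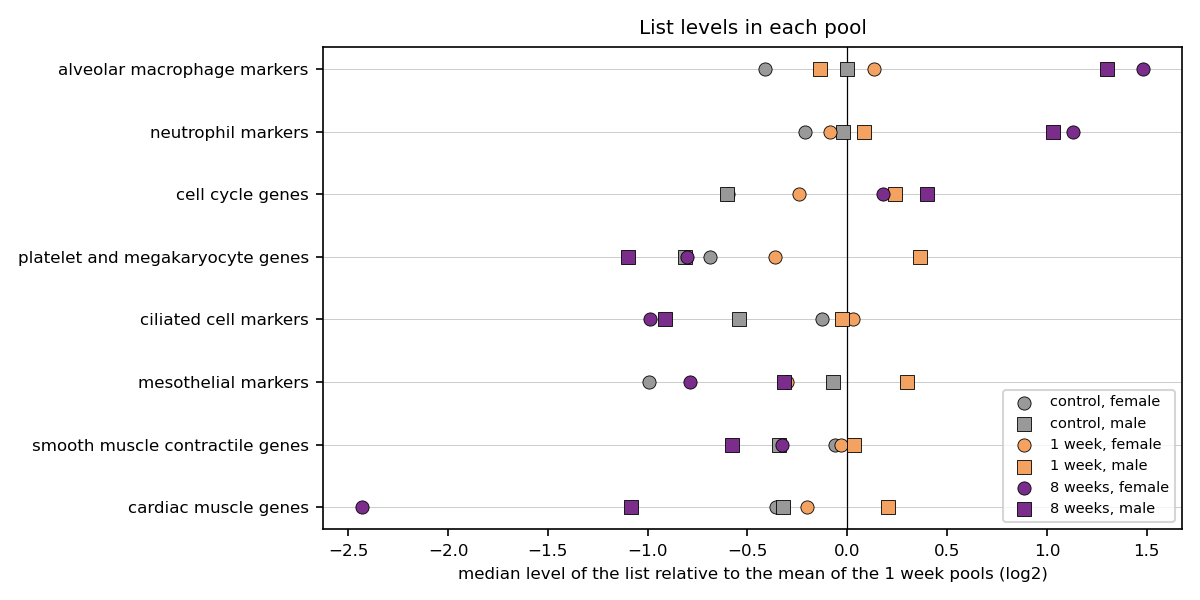
Median level of 8 lists in each pool relative to the mean of the 1 week pools (log2), with circles for female and squares for male pools. The purple 8 week pools stand highest for the alveolar macrophage and neutrophil lists, at 1.03 to 1.48; platelet genes are low in the grey controls (-0.69 and -0.82) as well as at 8 weeks (-0.80 and -1.10).

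Alveolar type 2 cells make surfactant. Of 16 of their markers measured, 14 were higher at 8 weeks in both sexes and none lower (median 0.33). Il33, an alarm cytokine, read 8.98 and 8.89 at 1 week and 10.13 and 10.48 at 8 weeks, 1.37 ± 0.17 apart. The surfactant protein genes Sftpb and Sftpd, among the brightest on the arrays, each differed by 0.14, and Sftpc stood at the top of the array scale in 3 of the 4 pools, where no difference can be read. Fabp5 (0.98) and Lyz2 (0.45), which macrophages also express, are in this list, and alveolar macrophage markers were higher in the same pools. Alveolar type 1 markers stood at 0.00.

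Metabolic genes differed modestly. Sterol and fatty acid synthesis genes were higher in both sexes in 13 of 19 cases (median 0.22), with Fdps (0.80), Idi1 (0.63) and Fasn (0.57) at the front. Genes of xenobiotic metabolism were lower in 16 of 20 cases (median -0.41), Cyp2s1 by 0.85 and Cyp1b1 by 0.67. Proteasome genes stood at 0.17, heat shock genes at 0.28 and respiratory chain genes at -0.03.

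Cell cycle genes were higher in both sexes in 16 of 23 cases, with a median of 0.28, 0.52 in females and 0.13 in males. Ccna2, cyclin A2, read 6.45 and 7.24 at 1 week and 7.35 and 7.88 at 8 weeks, 0.77 ± 0.15 apart, and Bub1, a spindle checkpoint kinase, was 1.06 ± 0.27 higher. Within each sex the 8 week pool was the higher one, although the male 1 week pool lay near the female 8 week pool. Plk1, another mitotic kinase, was 0.36 lower. The list median ranged from 0.10 without the female 1 week pool to 0.56 without the male 1 week pool, so its size rested on which 1 week pool was used.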

How the data were processed

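Per the labels, whole lung RNA was biotin-labelled and hybridised to arrays; each sample was a pool of 3 mice. The deposited values were intensities on a linear scale; the authors' summary of probes into probe sets and their scaling are not given in the sources used here. Probe sets for spiked or degradation controls were not analysed here, so RNA integrity was not checked. The number of columns without a sample was 0.

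All 6 arrays were quantile normalized. Before taking log2, an intensity under the 20th percentile (15.46) was replaced by that percentile. Probe sets with a mean over the 4 compared arrays above the 40th percentile (log2 5.19) were kept. Platform annotation gave 34945 probe sets 1 symbol, 932 several and 9160 none; of 13227 kept genes, 13203 were in the RefSeq table (GRCm38.p6). limma 3.58.1 in R 4.3.3 fitted activation time and sex to the 4 arrays (1 residual and 2.64 prior degrees of freedom), with Benjamini-Hochberg adjustment over all 26675 probe sets and a threshold of 0.05. An error after ± is limma's standard error. The residual spread is how far the sexes' differences disagree, and limma draws it toward a spread shared by all probe sets. Where the sexes agreed closely, the error is therefore mainly that shared spread, as for Clec4b1 (0.13). The p-values rest on the spread between these pools and on that shared spread, and the number of arrays limits their precision. The fit was also run on simulated data, where the only condition set was that the median estimate return the planted difference. That check does not bear on how many probe sets passed. A gene's list value is its brightest kept probe set with 1 symbol. Python 3.11.15 with matplotlib 3.10.9 made the plots.

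Named genes were the 15 highest and 15 lowest by the smaller of both sexes' differences with all 4 values above the floor, up to 5 a direction with one time at the floor (1 was found), up to 4 leading members of each list, the sex-linked markers, and Bmpr2, Tagln, Acta2, Id1, Id3 and Smad6. Further list members are named where they show what a list holds, chosen after their values were seen. The 44 lists, the genes and the rules were chosen with earlier results of these data known. Alternatives were the deposited scale, median centring, quantile normalization of the 4 arrays, a pseudocount of 16 without a floor, a higher floor (40th percentile), other filters and probe set choices, 1.5-fold, other variance settings, all 6 arrays, no sex term, and each pool left out.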

Additional observations from a re-analysis of the deposited data

Results flagged for a closer look

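For several results the female and the male pair differed in opposite directions between 1 and 8 weeks. There was 1 pair a sex, so none of these differences between the sexes was tested. The activators of the circadian clock had a median difference of -0.41 in females and 1.02 in males over 4 genes, and the clock repressors and output genes one of 0.10 in females and -0.41 in males over 16. Arntl, the BMAL1 activator, read 5.74 and 4.86 in the female pools of 1 and 8 weeks and 6.40 and 7.42 in the male pools. Per1, a repressor, was 0.25 higher in females and 0.77 lower in males, and Hlf, an output factor, 0.12 and 2.20 lower. The time of day at which tissue was taken is not given in the sources used here.

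At 8 probe sets of named genes the sexes were at least 2-fold apart in opposite directions, 0.03% of all kept. In females and males, the differences were -1.05 and 1.07 for Abhd18, -1.05 and 1.32 for Arhgap30, -1.17 and 1.05 for Ccna1, and 1.13 and -1.12 for Dlc1. They were -1.48 and 1.04 for Fgf11, 1.20 and -1.22 for Lyst, -1.0004 and 1.08 for Pla2g12b, and -1.11 and 1.24 for S1pr5. All 8 were dim, with time means between 5.17 and 5.85 on the log2 scale.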

How the results depend on the processing

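The count passing in limma (0) was 2157 with arrays centred on their medians (18.03 prior degrees of freedom; smallest adjusted p 4.13e-08), 194 with the filter at the 60th percentile, 265 with the mean of a gene's probe sets and 1565 with trend and robust settings, and 0 under every other alternative, each pool left out and no sex term (no replicate block) included. The cause was not tested. Probe sets 2-fold higher (220) and lower (290) in both sexes became 143 and 440 on the deposited scale, 135 and 184 with log2(value + 16), 109 and 150 with the 60th percentile filter, 141 and 100 with gene means, and 759 and 1051 at 1.5-fold. The 8 opposite ones became 3 (deposited), 5 (centred), 29 (no filter), 4 (gene means), 152 (1.5-fold) and 0 with the higher floor, with log2(value + 16) and with the 60th percentile filter. The correlation between the sexes' differences (0.53) was 0.54 when the 4 arrays were normalized alone, 0.56 with log2(value + 16), 0.40 without a filter, 0.63 with the 60th percentile filter, 0.51 without suffixed probe sets, 0.55 with 1-symbol probe sets and 0.60 with gene means.

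Among list medians of at least 0.2 in size and named genes at least 2-fold apart, 3 results reversed under an alternative: the B cell median (range over pools left out -0.055 to 0.50), the clock repressor median (-0.38 to 0.15, the latter without the male 8 week pool) and Cxcl2 (-0.028 to 3.79). Every fit with a pool left out kept both control arrays, which helped to set its sex difference. For Cxcl2 the female control read 10.55 and the male control was at the floor. Within the pairs Cxcl2 was higher in both sexes, by 1.42 in females and 2.35 in males. With each pool left out in turn, the cardiac median ranged from -2.22 to -1.15 and the alveolar macrophage median from 0.96 to 1.66. The neutrophil median ranged from 1.15 to 1.37 and the ciliated median from -1.15 to -0.80. The skeletal muscle median ranged from -0.94 to -0.06, the adipose one from -0.94 to -0.04, the mesothelial one from -0.88 to -0.26 and the club cell one from -0.62 to -0.21. The median of all probe sets was 0.02, but -0.08 on the deposited scale and 0.10 with centring, so small list medians shift with the scaling. Of the 20 lists with a median under 0.2 in size, 16 changed sign under at least 1 alternative, and no direction can be read from those. Dim genes are limited by the floor, which 18 of the 220 higher and 34 of the 290 lower probe sets touched.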

Other observations

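Some genes outside the lists, singled out after their values were seen, also differed by 2-fold in both sexes. Il6, the inflammatory cytokine, read 3.95 (the floor) and 4.17 in the female and male pools at 1 week and 7.50 and 6.59 at 8 weeks, with controls at 5.96 and 4.21. The female control thus lay between the times. Wif1, a secreted Wnt inhibitor, went from 6.35 and 6.62 to 7.88 and 8.04, but the controls, at 7.55 and 7.19, were also above the 1 week pools. Sp5, a Wnt target, stood at 4.60 and 4.97 at 1 week and at 6.01 and 6.56 at 8 weeks. Frzb, another Wnt inhibitor, differed by 1.74 from a 1 week level at the floor in females, and Esm1, a secreted endothelial proteoglycan, by 1.15. Selp, the adhesion receptor P-selectin of platelets and endothelium, differed by 1.41, although the platelet list was lower.

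Probe sets of RNAs known to stay in the nucleus, also picked after their values were seen, stood on both sides of 0. Malat1 had 1 probe set at 12.14 and 11.89 at 1 week and at 10.68 and 10.25 at 8 weeks, and its 7 kept probe sets differed by -0.18 to -1.54. Kcnq1ot1 stood between -0.28 and -1.29 over 4 probe sets. Tug1 was split, with probe sets at -1.72, -0.07 and 0.12. Neat1 stood at -0.41 and 0.66. Xist, also nuclear, was lower in the female pair at each of its 3 probe sets. Srrm2, an mRNA splicing factor, had probe sets at -1.62, -0.86 and 0.01. As among the lowest genes, the size of these differences varied between probe sets of the same gene.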
